A study of Mus musculus with 12 samples.

Results

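The 10 genes described here are matrix metalloproteinases (MMPs) and their tissue inhibitors (TIMPs), measured in mouse neuroblastoma tumors after high intensity focused ultrasound (HIFU). They are the 7 proteinases Mmp2, Mmp3, Mmp9, Mmp12, Mmp13, Mmp14 and Mmp19 and the 3 inhibitors Timp1, Timp2 and Timp3, out of 19505 genes named on 22206 probe sets. The genes were taken by symbol, with the probe set of highest mean signal, and each of the 10 had 1 probe set. HIFU delivers focused sound waves into tissue, here in a mode that breaks tissue mechanically. Tumors were raised in A/J mice, an inbred strain, from inoculated neuroblastoma cells, a cancer of the sympathetic nervous lineage, and frozen tissue was ground for total RNA. Groups were 3 tumors labelled HIFU for 24 h, 3 for 48 h and 3 for 72 h, and 3 untreated control tumors, each on 1 Affymetrix Mouse Clariom S array. The times are taken to count from HIFU, which the wording of the labels leaves unsettled. The labels give neither the cell line nor the age of the mice, and do not say if the tumors of a group grew in different animals. The p-values therefore measure only how these samples spread, which may be technical.

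MMPs are zinc-dependent enzymes that cut collagens, elastin, laminins and other matrix proteins, and also release or destroy growth factors and cytokines. Most are secreted as inactive precursors whose prodomain must be removed, often by plasmin or by another MMP. TIMPs bind the active site of MMPs and block them, and TIMP2 also takes part, with the membrane-bound MMP14, in switching on MMP2. In wounds and tumors much of this system is made by fibroblasts, macrophages and neutrophils rather than by the tumor cells themselves. In tissue RNA a larger number of such cells and more RNA per cell cannot be told apart.

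Several secreted MMP genes lie side by side on mouse chromosome 9, where an unbroken run of 10 MMP genes holds the members Mmp13, Mmp12 and Mmp3. The promoters of secreted MMP genes are a textbook place for the AP-1 motif, the binding sequence of Fos and Jun dimers, so the stretches that hold its letters are shown here. RefSeq's promoter table for build GRCm38.p6 had entries for 7 of the 10 members. The motif TGAGTCA, or TGACTCA on the other strand, was found in the 300 bases around the start of these 3 genes. Each stretch below is the 90 bases before an annotated start, 5′ to 3′ on the plus strand, with the AP-1 letters and, where present, the TATAAA letters in capitals.
Mmp13, chr9:7272424-7272513: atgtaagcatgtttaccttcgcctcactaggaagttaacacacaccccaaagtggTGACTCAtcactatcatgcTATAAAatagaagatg
Mmp12, chr9:7347284-7347373: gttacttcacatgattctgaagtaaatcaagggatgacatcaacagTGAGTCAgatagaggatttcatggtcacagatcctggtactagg
Mmp3, chr9:7445732-7445821: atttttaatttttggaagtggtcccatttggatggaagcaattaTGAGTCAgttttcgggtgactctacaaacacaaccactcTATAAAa
The first base of the motif lay 35 bases before the start in Mmp13, 44 in Mmp12 and 46 in Mmp3. This Mmp12 entry also held TATAAA or its complement, 4 bases after the start and so outside the printed stretch. Each of the 3 entries thus held both motifs. Mmp12 has another annotated start, whose entry held neither motif, and the entries of Mmp14, Timp1, Timp2 and Timp3 held neither. Of all 32851 promoter entries of the same length, 5.2% held the AP-1 letters on either strand, 13.6% held TATAAA or its complement, and 0.941% held both. A match describes letters and does not show a bound site.

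The values were log2 signals, so a difference of 1 is a doubling of signal, and each gene is compared only with itself across arrays. Array medians lay between 5.43 and 5.68. HIFU_72h replicate 2 stood apart from the other arrays, at 126.1 on a first principal component that held 43.6% of the variance, where the other 11 arrays lay between -78.9 and 73.5. HIFU_24h replicate 2 lay at -53.6, among the controls at -78.9 to -42.7, while the other 24 h arrays lay at 28.6 and 45.2. Marker sums, here and below, are the log2 of signals added on the linear scale, so the brightest markers weigh most. Of 12 neuroblastoma markers 10 were measured. They summed to 17.1 to 18.7 at 24 h, 17.0 to 18.4 at 48 h and 15.7 to 18.6 at 72 h. All groups overlapped, with control replicates 1, 2 and 3 at 14.7, 16.7 and 18.6. Among the HIFU arrays HIFU_72h replicate 2 had the lowest sum, 15.7, and HIFU_24h replicate 2 the highest, 18.7.

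Most members had a higher mean signal in HIFU tumors than in controls, and Timp3 alone was lower at every time. Against control, 7 of the 10 differences were positive at 24 h, 8 at 48 h and 9 at 72 h. The median difference of the members was 1.00 at 24 h, 1.15 at 48 h and 1.90 at 72 h, against 0.00, 0.01 and -0.06 over all probe sets. The tumors of a group differed widely, and no member passed the test. With limma and Benjamini-Hochberg adjustment over all probe sets, 0 of 10 members had an adjusted p under 0.05 at 24 h, 48 h or 72 h, where 0.054%, 0.0045% and 0.00901% of all probe sets did. For the mean of the 3 HIFU groups 0 members were called, and 0.018% of probe sets, and by the F test over the 3 times 0 members and 0.00901% of probe sets. At an unadjusted p under 0.05, 4 members were higher and 1 lower in the mean of the HIFU groups, against a background of 6.01% and 8.59% of probe sets. By time, the unadjusted count was 3 higher and 1 lower at 24 h (background 3.98% and 5.86%), 2 and 1 at 48 h (5.3% and 8.01%), and 3 and 0 at 72 h (5.85% and 5.39%). The members were chosen with results of these data known, so these shares describe them and carry no test. With array weights, which give noisy arrays less influence, limma called 6 members in the mean of the HIFU groups, beside 17.1% of all probe sets.

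**Figure D1:**
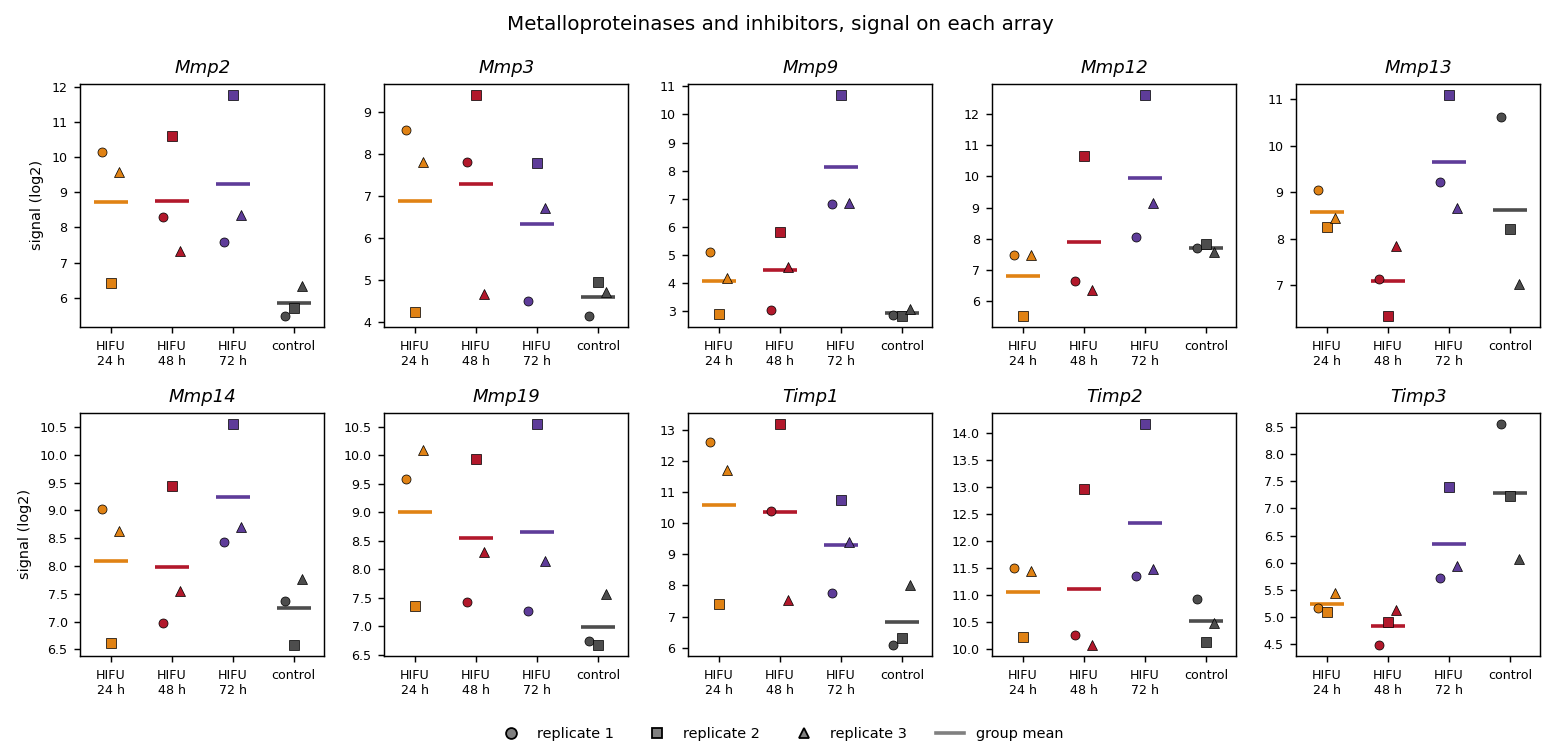
Log2 signal of the 10 members on each of the 12 arrays, with a panel per gene and its own vertical axis. Points are single tumors, shaped by replicate number, and bars are group means (n = 3). Mmp2 has all HIFU points above all control points, Mmp9 is high at 72 h, and Timp3 is lower at 24 h and 48 h than in controls.

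The gelatinases Mmp2 and Mmp9 cut denatured collagen and the type IV collagen of basement membranes. Mmp2 (probe set TC0800001077.mm.2), the gelatinase typical of fibroblasts, had log2 signals of 10.16, 6.41 and 9.57 at 24 h, 8.31, 10.62 and 7.33 at 48 h and 7.58, 11.79 and 8.36 at 72 h, against 5.47, 5.71 and 6.33 in controls. It was the only member whose 9 HIFU arrays all lay above all 3 controls, a pattern seen in 1.76% of probe sets, beside 1.65% with all 9 below. The lowest HIFU array, HIFU_24h replicate 2, exceeded the highest control by less than the controls spanned. The difference from control was 2.88 ± 1.20 at 24 h (SE, adjusted p = 0.478), 2.92 ± 1.20 at 48 h (adjusted p = 0.335) and 3.41 ± 1.20 at 72 h (adjusted p = 0.351). Over the 3 HIFU groups together Mmp2 was higher by 3.07 ± 0.98, or 8.38-fold, with an adjusted p of 0.212.

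Mmp9 (probe set TC0200002542.mm.2), the gelatinase stored in neutrophil granules and also made by macrophages and osteoclasts, had its high signals at 72 h. Its signals were 5.10, 2.92 and 4.20 at 24 h, 3.06, 5.82 and 4.58 at 48 h and 6.82, 10.70 and 6.84 at 72 h, against 2.86, 2.83 and 3.08 in controls. The 72 h arrays lay above every other array, with no overlap, whereas 1 array at 24 h and 1 at 48 h were within the range of the controls. All 3 control signals were below 3.55, the 25th percentile of mean signal over probe sets, near the low end of the scale. No detection calls were used here, so whether the controls were above background is not known and no fold is given. At 72 h Mmp9 was higher than in controls by 5.20 ± 0.99 on the log2 scale (limma, adjusted p = 0.209). At 24 h the difference was 1.15 ± 0.99 (adjusted p = 0.732) and at 48 h 1.56 ± 0.99 (adjusted p = 0.518). Without HIFU_72h replicate 2 the 72 h difference was 3.91, with an adjusted p of 0.281.

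The chromosome 9 neighbours Mmp3, Mmp12 and Mmp13 followed 3 different courses. Mmp3, or stromelysin 1, degrades proteoglycans and laminin and activates other MMPs. It had signals of 8.56, 4.22 and 7.81 at 24 h, 7.79, 9.40 and 4.66 at 48 h and 4.50, 7.78 and 6.70 at 72 h, against 4.13, 4.94 and 4.70 in controls. In each HIFU group 2 tumors were above all controls and the other lay within the control range. The difference from control was 2.27 ± 1.30 at 24 h (adjusted p = 0.595), 2.69 ± 1.30 at 48 h (adjusted p = 0.399) and 1.74 ± 1.30 at 72 h (adjusted p = 0.668).

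Mmp12, the macrophage elastase, had signals of 7.46, 5.51 and 7.46 at 24 h, 6.63, 10.66 and 6.35 at 48 h and 8.05, 12.63 and 9.16 at 72 h, against 7.70, 7.83 and 7.58 in controls. All 24 h arrays were below all controls, by as little as 0.12, and all 72 h arrays were above them. The differences were -0.89 ± 1.24 at 24 h (adjusted p = 0.845), 0.18 ± 1.24 at 48 h (adjusted p = 0.964) and 2.24 ± 1.24 at 72 h (adjusted p = 0.527). The 48 h mean rested on replicate 2, and without that tumor the difference turned to -1.21.

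Mmp13, the main collagenase of rodents, known from fibroblasts, osteoblasts and hypertrophic cartilage, differed from controls in sign between times. Its signals were 9.04, 8.26 and 8.45 at 24 h, 7.13, 6.34 and 7.84 at 48 h and 9.21, 11.09 and 8.66 at 72 h, against 10.62, 8.20 and 7.02 in controls. The control tumors spanned 3.60 log2 units, the widest control range among the members, and enclosed all but 1 array at 48 h and 1 at 72 h. Differences from control were -0.03 ± 0.84 at 24 h (adjusted p = 0.997), -1.51 ± 0.84 at 48 h (adjusted p = 0.455) and 1.04 ± 0.84 at 72 h (adjusted p = 0.697). The difference at 24 h had no settled sign, and leaving out single arrays moved it between -0.83 and 0.97.

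Mmp14, a membrane-bound collagenase that activates MMP2, had its highest group mean at 72 h. Its signals were 9.03, 6.61 and 8.63 at 24 h, 6.97, 9.43 and 7.55 at 48 h and 8.44, 10.56 and 8.70 at 72 h, against 7.38, 6.58 and 7.77 in controls. At 72 h all 3 arrays were above the controls, and at the earlier times the groups overlapped. The difference was 0.85 ± 0.79 at 24 h (adjusted p = 0.755), 0.74 ± 0.79 at 48 h (adjusted p = 0.715) and 1.99 ± 0.79 at 72 h (adjusted p = 0.382).

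Mmp19, a secreted proteinase that acts on basement membrane proteins, had signals of 9.58, 7.36 and 10.10 at 24 h, 7.43, 9.94 and 8.30 at 48 h and 7.27, 10.56 and 8.15 at 72 h, against 6.74, 6.67 and 7.56 in controls. In each HIFU group 2 tumors were above all controls. The difference was 2.02 ± 0.91 at 24 h (adjusted p = 0.506), 1.57 ± 0.91 at 48 h (adjusted p = 0.479) and 1.67 ± 0.91 at 72 h (adjusted p = 0.523), so its group means among HIFU tumors lay close together.

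The 3 inhibitors differed from one another. Timp1, an inducible TIMP of wounds and inflammation, had signals of 12.61, 7.39 and 11.71 at 24 h, 10.38, 13.19 and 7.53 at 48 h and 7.75, 10.74 and 9.38 at 72 h, against 6.09, 6.33 and 8.02 in controls. In each HIFU group 1 tumor lay below control replicate 3, the highest control. The difference was 3.76 ± 1.51 at 24 h (adjusted p = 0.461), 3.55 ± 1.51 at 48 h (adjusted p = 0.347) and 2.48 ± 1.51 at 72 h (adjusted p = 0.575). At 24 h this was the largest difference among the members, 13.5-fold, and also the least precise.

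Timp2, the TIMP that works with MMP14 in MMP2 activation, had signals of 11.50, 10.23 and 11.44 at 24 h, 10.27, 12.97 and 10.08 at 48 h and 11.35, 14.17 and 11.48 at 72 h, against 10.93, 10.14 and 10.48 in controls. The 72 h arrays were all above the controls, 2 of them narrowly, and the earlier groups overlapped with the controls. Its difference at 72 h was 1.82 ± 0.84 (adjusted p = 0.451), while at 24 h and 48 h it was 0.54 ± 0.84 (adjusted p = 0.862) and 0.59 ± 0.84 (adjusted p = 0.802). Without HIFU_48h replicate 2 the 48 h difference was -0.34.

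Timp3 (probe set TC1000001044.mm.2), the TIMP that stays bound to the extracellular matrix and also blocks several ADAM proteinases, went the other way. It had signals of 5.17, 5.10 and 5.45 at 24 h, 4.49, 4.91 and 5.14 at 48 h and 5.72, 7.40 and 5.94 at 72 h, against 8.56, 7.23 and 6.07 in controls. Every 24 h and 48 h array lay below every control, and of the 9 HIFU arrays only HIFU_72h replicate 2 lay above the lowest control. Timp3 was lower by 2.05 ± 0.57 at 24 h (difference -2.05, adjusted p = 0.301), by 2.44 ± 0.57 at 48 h (difference -2.44, adjusted p = 0.202) and by 0.93 ± 0.57 at 72 h (difference -0.93, adjusted p = 0.576). Over the HIFU groups together its difference was -1.81 ± 0.47, with an adjusted p of 0.147, the lowest of any member in that comparison. The call depended on control replicate 3, the lowest control. Without that tumor the differences were -2.66 at 24 h (adjusted p = 0.0378), -3.05 at 48 h (adjusted p = 0.0185) and -2.42 over the HIFU groups (adjusted p = 0.0222), all past the threshold. Leaving out this array also raised the share of all probe sets called, to 1.14% at 24 h, 1.41% at 48 h and 1.79% over the HIFU groups, against 0.054%, 0.0045% and 0.018% with all arrays. Over all alternatives tried, the adjusted p ranged from 0.0257 to 0.927 at 24 h, from 0.0185 to 0.730 at 48 h and from 0.00292 to 0.764 for the HIFU groups together, and the sign was negative in each.

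**Figure D2:**
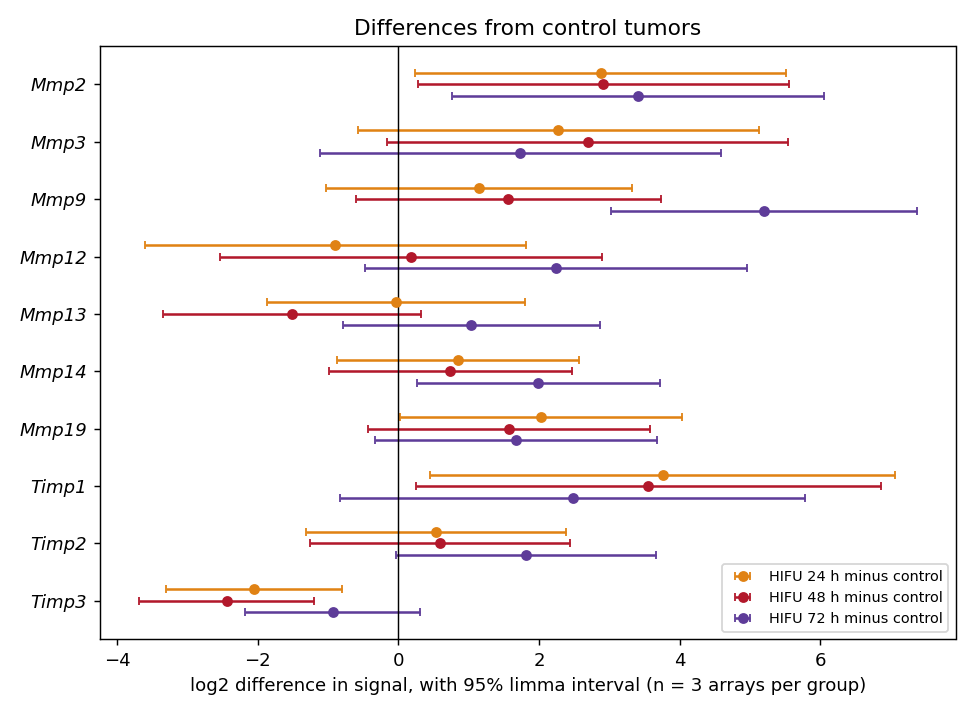
Log2 difference from control tumors for each member at 24, 48 and 72 h, with 95% limma intervals, not adjusted for the number of probe sets (n = 3 arrays per group). Most points lie right of 0 with wide intervals. Timp3 lies left of 0, and the 72 h point of Mmp9, at 5.20, lies farthest right.

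Counts of members whose 3 arrays did not overlap with the controls were read against the share of all probe sets that did the same. At 24 h 1 member was wholly above the controls, Mmp2, and 2 wholly below, Mmp12 and Timp3, against 6.84% and 7.68% of probe sets. At 48 h these were 1 and 1, Mmp2 and Timp3, against 10.3% and 11.7%. At 72 h 5 members were wholly above, Mmp2, Mmp9, Mmp12, Mmp14 and Timp2, and 0 below, against 8.99% and 10.1%. All 3 comparisons use the same control tumors. Without HIFU_72h replicate 2, 9 of the 10 differences at 72 h were still above 0. Several were then much smaller, at 2.13 for Mmp2, 0.90 for Mmp12, 0.32 for Mmp13 and 0.72 for Mmp19, and adjusted p ranged from 0.281 to 0.999.

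Differences between times addressed whether the members changed over the 3 days. None of the 30 differences passed the test, with adjusted p from 0.584 to 0.999, and limma called 0% of all probe sets in each pair of times. At an unadjusted p under 0.05 there were 0 members for 48 h against 24 h, where 3.89% of probe sets passed. There were 3 members higher at 72 h than at 48 h, where 3.33% of probe sets were, and 2 higher at 72 h than at 24 h, where 3.22% were. Same-numbered 48 h and 72 h tumors deviated together, with correlations of 0.375, 0.625 and 0.235. So did HIFU_48h replicate 1 with HIFU_72h replicate 3 (0.381) and HIFU_48h replicate 3 with HIFU_72h replicate 1 (0.375). The remaining differently numbered pairs were at -0.443, -0.582, -0.476 and -0.363. Deviations from a group mean sum to 0 within the group. These correlations therefore depend on one another and do not count as separate results. A fit to these 6 arrays, blocked by replicate number, gave 6 members at an unadjusted p under 0.05, beside 10.6% of probe sets. At the adjusted threshold it again gave 0. The block was chosen for the correlations of same-numbered tumors, so its p-values are descriptive only. In that paired fit the limma adjusted p for 72 h against 48 h was 0.128 for Mmp9 and 0.160 for Mmp12. It was 0.204 for both Mmp14 and Timp2, 0.235 for Timp3 and 0.245 for Mmp13. Mmp9 at 72 h exceeded its 48 h mean by 3.63 ± 0.99 (adjusted p = 0.738) and its 24 h mean by 4.05 ± 0.99 (adjusted p = 0.584). Mmp13 was higher at 72 h than at 48 h by 2.55 ± 0.84, and Timp3 by 1.51 ± 0.57 (both adjusted p = 0.746). Mmp12 was higher at 72 h than at 24 h by 3.14 ± 1.24 (adjusted p = 0.844). Timp3 was higher at 72 h than at 24 h by 1.11 ± 0.57 (adjusted p = 0.889), and Mmp13 was lower at 48 h than at 24 h, at -1.48 ± 0.84 (adjusted p = 0.999). In each of these 7 differences the arrays of the 2 times did not overlap. Of all probe sets, 4.7% lay wholly higher at 72 h than at 48 h, 4.53% wholly higher at 72 h than at 24 h, and 3.7% wholly lower at 48 h than at 24 h.

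The order of the group means, low to high, was control, 24 h, 48 h and 72 h for Mmp2, Mmp9 and Timp2. Controls also had the lowest mean for Mmp3, followed by 72 h, 24 h and 48 h, for Mmp14, followed by 48 h, 24 h and 72 h, for Mmp19, followed by 48 h, 72 h and 24 h, and for Timp1, followed by 72 h, 48 h and 24 h. The order was 24 h, control, 48 h and 72 h for Mmp12, 48 h, 24 h, control and 72 h for Mmp13, and 48 h, 24 h, 72 h and control for Timp3. Neighbours in these orders overlapped, apart from 24 h and control for Mmp2 and Mmp12, 72 h and 48 h for Mmp9, 48 h and 24 h for Mmp13, and 72 h and 24 h for Timp3, and no neighbours differed past the adjusted threshold. HIFU_72h replicate 2 was the highest of the 12 arrays for Mmp2, Mmp9, Mmp12, Mmp13, Mmp14, Mmp19 and Timp2. HIFU_48h replicate 2 was the highest for Mmp3 and Timp1.

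Markers of the cell types that make these proteins moved across the same arrays. Fibroblast markers, 9 of 10 measured, had a median signal above the control mean by 4.13, 0.21 and 3.01 at 24 h, 2.00, 5.86 and 1.57 at 48 h and 2.38, 6.79 and 3.06 at 72 h, with controls at -0.74, -0.52 and 1.33. HIFU_24h replicate 2, low in Mmp2, Mmp3, Mmp9, Mmp12, Mmp14, Mmp19 and Timp1, was the HIFU tumor with the least fibroblast signal. HIFU_48h replicate 2 and HIFU_72h replicate 2 had the most. The median of macrophage markers, given below, was also lowest in HIFU_24h replicate 2, at -1.12. The log2 of the summed fibroblast signal was 12.1 to 16.6 at 24 h, 13.7 to 17.9 at 48 h and 14.4 to 18.4 at 72 h, against 10.8 to 12.8 in controls. Skeletal muscle markers, all 18 measured, summed to 20.6 to 21.9 at 24 h, 20.8 to 21.4 at 48 h and 20.3 to 22.0 at 72 h, against 16.7 to 20.3 in controls. Endothelial markers, all 8 measured, summed to 10.5 to 13.0 over the 9 HIFU arrays, against 10.1 to 10.9 in controls. Their median lay 1.95, 0.17 and 1.26 above the control mean at 24 h, so HIFU_24h replicate 2 was low here too. Keratinocyte markers, 5 of 6 measured, summed to 5.71 to 5.91 at 24 h, 5.86 to 8.98 at 48 h and 5.68 to 9.14 at 72 h, against 5.94 to 5.98 in controls, and were high on HIFU_48h replicate 3 and HIFU_72h replicate 2. The part of neuroblastoma, fibroblast, muscle, endothelial or skin content in the members' differences was not tested.

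Neutrophil markers, 10 of 11 measured, had a median above the control mean by 1.82, 0.00 and 1.58 at 24 h, 0.88, 3.15 and 5.98 at 48 h and 7.42, 10.03 and 6.78 at 72 h, with controls at 0.28, -0.05 and -0.06. The 72 h tumors, highest in Mmp9, were also the highest in these markers, and HIFU_24h replicate 2, whose Mmp9 was within the controls, had a median at the control mean. The 48 h tumors did not follow the same order. HIFU_48h replicate 1, with Mmp9 at 3.06 and also within the controls, had a median of 0.88. HIFU_48h replicate 3 had a higher median than replicate 2, 5.98 against 3.15, but lower Mmp9, 4.58 against 5.82. The order of these tumors depended on the marker. Cxcr2, Csf3r and Retnlg were lower in HIFU_48h replicate 3 than in replicate 2, like Mmp9. S100a8, S100a9, Mpo, Elane, Camp, Ngp and Ltf were higher. Summed neutrophil signal was 8.07 to 12.8 at 24 h, 9.80 to 14.9 at 48 h and 15.5 to 19.0 at 72 h, against 7.43 to 8.05 in controls. Macrophage markers, 9 of 10 measured, summed to 12.9 to 15.9 at 24 h, 14.1 to 17.3 at 48 h and 15.1 to 18.8 at 72 h, against 12.1 to 13.1 in controls. Their median relative to the control mean was mixed, at 1.46, -1.12 and 1.64 at 24 h and 0.08, 2.30 and -0.63 at 48 h. At 72 h it was 0.74, 3.14 and 1.46, with controls at 0.45, -0.53 and 0.22. Of the 9 differences 5 were positive and 4 negative at 24 h, 7 and 2 at 48 h, and 9 and 0 at 72 h. Osteoclast markers, also relevant to Mmp9, summed to 8.02 to 8.27 at 24 h, 8.14 to 9.98 at 48 h and 10.3 to 12.7 at 72 h, against 8.33 to 9.47 in controls, with Ocstamp and Calcr dim on every array. Markers of osteoblasts and hypertrophic cartilage, relevant to Mmp13, summed to 7.17 to 7.33 at 24 h, 6.88 to 7.66 at 48 h and 8.02 to 10.4 at 72 h, against 6.85 to 7.08 in controls. Of these 8 markers 1 passed the test at 72 h, where 0.00901% of all probe sets did. This was Ibsp, a bone matrix sialoprotein, at 7.14, 9.05 and 6.75, against 2.79, 2.78 and 2.58 in controls. Its control signals, like those of Mmp9, were below 3.55, near the low end of the scale. The part of these cells in the Mmp9, Mmp12 and Mmp13 signals was not tested.

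**Figure D3:**
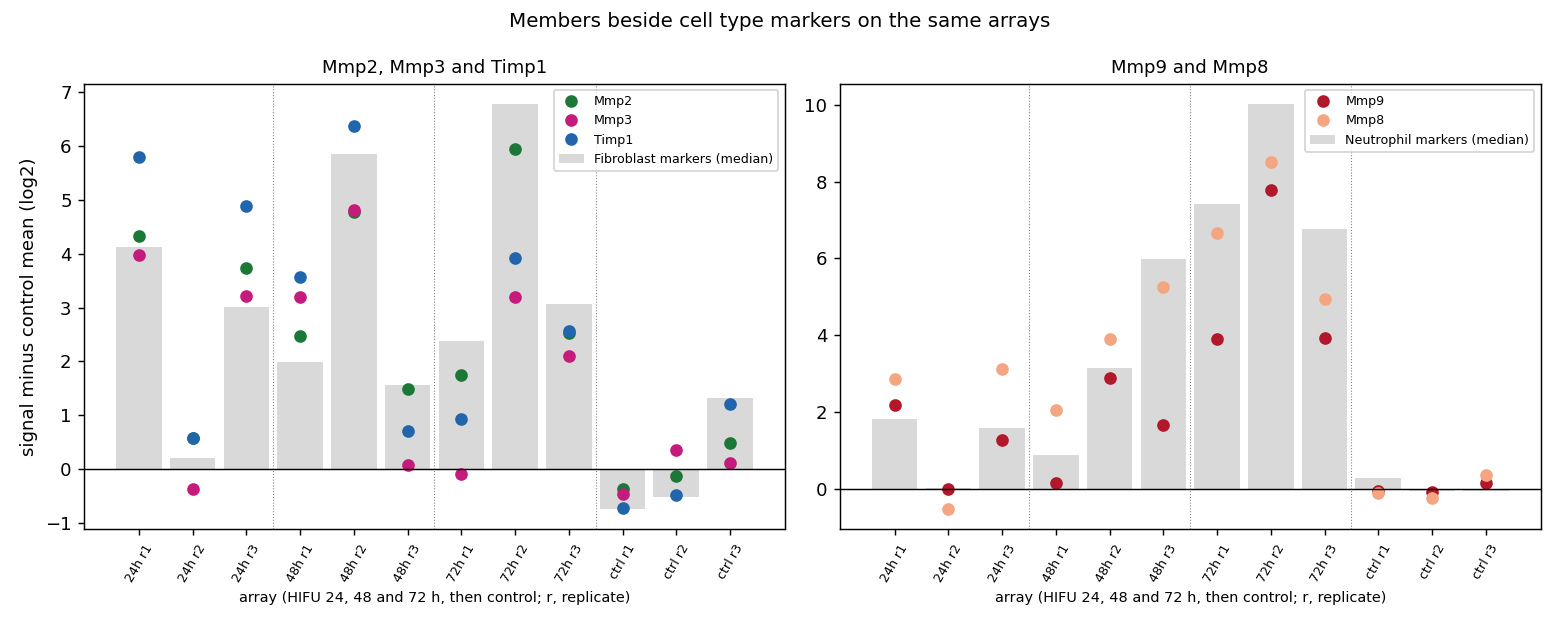
Signal minus the control mean (log2) on each array, for Mmp2, Mmp3 and Timp1 over the median of fibroblast markers (left, grey bars) and for Mmp9 and Mmp8 over the median of neutrophil markers (right, grey bars). Arrays run from 24 h to 72 h and then control. HIFU_24h replicate 2 is low in both panels, and the 72 h arrays are highest in the neutrophil panel.

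The genes whose course over the 12 arrays was nearest to each member were found by the root mean square difference between signals centred on each gene's mean. For Mmp2 these were Pgap6, at 0.33 log2 units, and Mrc1, a macrophage mannose receptor, at 0.41. For Mmp9 they were Mrgpra2b at 0.55 and Stfa2, a stefin, at 0.63, and for Mmp12 they were Mpeg1 at 0.49 and Il1rn, the interleukin 1 receptor antagonist, at 0.53. Timp1 lay nearest to Lox, a collagen cross-linking enzyme, at 0.49 and to Arg1, an arginase, at 0.65. Timp3 lay nearest to Lgals9, a galectin, at 0.40 and to Isg15, an interferon-stimulated ubiquitin-like protein, at 0.42. Mmp14 was nearest to Gng12 and Olfml2b (both 0.29), Mmp19 to Gja1 (0.34) and Adgrl4 (0.36), and Timp2 to Tmsb4x (0.26) and Cap1 (0.28). Mmp3, with Chl1 at 0.61 and Cxcl14 at 0.68, and Mmp13, with Galm and Ptpn22 at 0.77, had the most distant nearest genes. All of these genes share the same 12 arrays, so the distances describe likeness only.

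Among the members themselves the 45 pairwise distances ran from 0.44 to 3.08, with a median of 1.51. Mmp14 and Timp2, partners in the activation of MMP2, were the closest pair at 0.44. Mmp14 and Mmp19 followed at 0.70, and Mmp3 and Timp1 lay 0.75 apart. The 3 chromosome 9 neighbours with AP-1 letters in the stretches printed above were farther apart than the median pair, at 1.84 for Mmp3 and Mmp12, 1.90 for Mmp12 and Mmp13, and 2.46 for Mmp3 and Mmp13.

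Of the 16 other MMPs listed, 14 were measured, and 0 passed the test at any time against control. Their median difference was 0.14 at 24 h, 0.45 at 48 h and 0.06 at 72 h, beside 1.00, 1.15 and 1.90 for the members. Because the members were chosen with results of these data known, this comparison carries no test. Mmp8, the neutrophil collagenase and another gene of the chromosome 9 run, had signals of 6.42, 3.02 and 6.67 at 24 h, 5.60, 7.46 and 8.82 at 48 h and 10.22, 12.08 and 8.51 at 72 h, against 3.45, 3.30 and 3.91 in controls. All 48 h and 72 h arrays lay above the controls, and over the HIFU groups together the difference was 4.09 ± 0.90 (adjusted p = 0.125). Mmp17, a membrane-anchored MMP, had a difference of -1.07 ± 0.32 at 72 h (adjusted p = 0.308). Mmp7, or matrilysin, had low signals, with group means of 3.38, 3.88 and 2.90 at 24, 48 and 72 h, against 3.26 in controls.

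Among 4 other inhibitors of metalloproteinases, Reck was low beside Timp3. RECK is a membrane-anchored inhibitor of several MMPs. Its signals were 5.67, 5.96 and 5.31 at 24 h, 6.06, 5.61 and 6.17 at 48 h and 6.30, 6.88 and 6.24 at 72 h, against 8.51, 7.59 and 6.22 in controls. The 24 h and 48 h arrays were all below the controls, and as for Timp3 control replicate 3 was the lowest control. The difference over the HIFU groups was -1.42 ± 0.38 (adjusted p = 0.153), and without control replicate 3 it was -2.03 (adjusted p = 0.00698, beside 1.79% of probe sets called, with a range over the alternatives of 0.0035 to 0.764). Timp4 and A2m, a plasma proteinase trap, differed from control by 0.31 ± 0.20 (adjusted p = 0.527) and -0.24 ± 0.24 (adjusted p = 0.707) over the HIFU groups, and 0 of the 4 passed the test.

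The plasminogen system can activate MMP precursors through plasmin. Of its 9 listed genes 7 were measured and 0 passed the test, with a median difference of 0.59 at 24 h, 0.66 at 48 h and 0.60 at 72 h. Serpinb2, an inhibitor of plasminogen activators, had signals of 10.80, 5.91 and 11.84 at 24 h, 9.46, 9.54 and 6.06 at 48 h and 5.16, 7.10 and 8.01 at 72 h, against 4.41, 4.70 and 5.79 in controls. All 24 h and 48 h arrays were above the controls, and the difference at 24 h was 4.55 ± 1.41 (adjusted p = 0.355). Plgrkt, a plasminogen receptor, had a difference of -0.94 ± 0.31 over the HIFU groups (adjusted p = 0.218), and Plg, plasminogen itself, had one of 0.37 ± 0.26 (adjusted p = 0.556).

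Matrix proteins that MMPs cut had mostly positive differences. Of 19 listed genes 18 were measured and 0 passed the test. Over the HIFU groups together 16 differences were positive and 2 negative, those of Fn1 and Lama2, named here after their values were seen. The median difference of the list was 1.26 at 24 h, 1.50 at 48 h and 1.51 at 72 h. All 3 arrays lay above all controls for 1 of the 18 at 24 h, 7 at 48 h and 10 at 72 h, against 6.84%, 10.3% and 8.99% of all probe sets. Dcn, the collagen-binding proteoglycan decorin, had signals of 15.41, 11.18 and 14.76 at 24 h, 12.99, 16.50 and 12.91 at 48 h and 13.71, 17.45 and 13.92 at 72 h, against 9.77, 9.70 and 11.23 in controls. Over the HIFU groups its difference was 4.08 ± 1.08 (adjusted p = 0.149), beside 4.01 ± 1.20 for Col1a1, a chain of type I collagen (adjusted p = 0.190), and 2.04 ± 0.67 for the proteoglycan gene Bgn (adjusted p = 0.219). Dcn and Col1a1 are also on the fibroblast marker list given above.

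Adamalysins, the related ADAM and ADAMTS proteinases, were measured for 13 of 14 genes, and 0 passed the test. Their median difference was 0.55 at 24 h, 0.50 at 48 h and 0.55 at 72 h. The aggrecan-cutting Adamts5 had a difference of 2.13 ± 0.75 over the HIFU groups (adjusted p = 0.240) and Adamts1 of 1.80 ± 0.65 (adjusted p = 0.245), while Adam19 was at -1.53 ± 0.48 at 48 h (adjusted p = 0.253). Of 16 regulators of MMP transcription and clearance, AP-1 subunits included, 0 passed the test, with medians of 0.43, 0.28 and 0.47 at 24, 48 and 72 h. Tgfb1, a cytokine that raises TIMP and collagen synthesis, was above all controls on all 9 HIFU arrays, as were 1.76% of all probe sets. Its difference was 1.19 ± 0.41 (adjusted p = 0.235). Bsg, which encodes the MMP inducer basigin, was below all controls on all 9, as were 1.65% of all probe sets, at -0.58 ± 0.20 (adjusted p = 0.241). Tnf, a cytokine that induces several MMPs, had a difference of -0.32 ± 0.44 (adjusted p = 0.791).

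**Figure D4:**
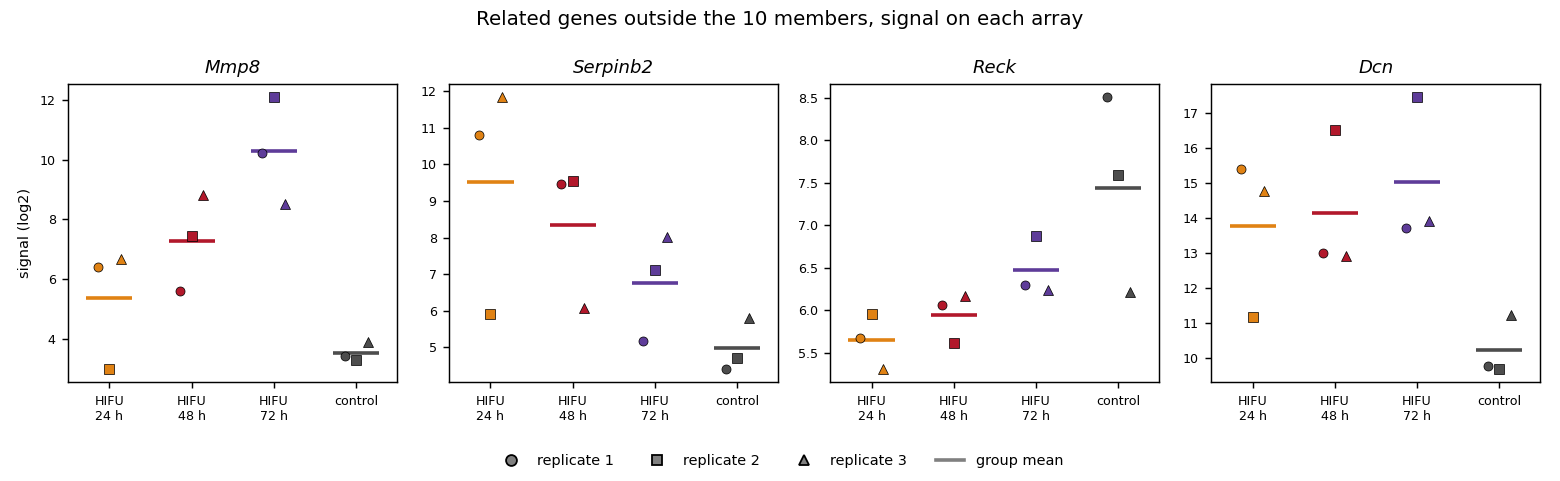
Log2 signal of Mmp8, Serpinb2, Reck and Dcn on each of the 12 arrays, with a panel per gene and its own vertical axis. Points are single tumors, shaped by replicate number, and bars are group means (n = 3). Mmp8 is high at 72 h, Serpinb2 at 24 h and 48 h, Reck is lower in 24 h and 48 h tumors than in controls, and Dcn has its lowest group mean in controls.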

How the data were processed

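The deposited table held log2 signals per probe set from 1.75 to 19.93, computed by the authors. Base 2 was read from the range of the values. Per the submitters' processing notes, Transcriptome Analysis Console 4.0 was used; how it was set, and the build, is not given in the sources used here. No further scaling was applied. Clariom S probe sets were named through the platform annotation and gene numbers in a RefSeq table (GRCm38.p6): 19572 had 1 symbol, 0 had several and 2634 had none. Genes on the lists without a named probe set were not analysed here.

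A mean per group was fitted to all 12 arrays with limma 3.58.1 in R 4.3.3 (lmFit, eBayes, prior degrees of freedom 3.37). Tests were two-sided moderated tests, adjusted by Benjamini-Hochberg over all 22206 probe sets at a threshold of 0.05. Errors are limma standard errors (SE). The fit was checked on simulated data. Figures and motif searches used Python 3.11.15 and matplotlib 3.10.9. With 3 arrays per group, their number limits the precision.

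The members, gene lists and tests were chosen with earlier results of these data known. Named genes were the members, any gene of a list past the threshold against control and otherwise the 3 per list with the smallest F-test p, and for each member the 2 nearest genes by centred signal, predicted genes left out. Same-numbered 48 h and 72 h tumors were paired in a further fit chosen after seeing the data. The reason was that their deviations from the group means correlated at 0.375, 0.625 and 0.235. Some differently numbered 48 h and 72 h tumors correlated too, at 0.375 and 0.381, and the labels state no pairing. These correlations depend on one another, because deviations sum to 0 within a group. Alternatives were a block for the replicate number, no dim probe sets, array weights, median centring, quantile normalization, limma's trend and robust options, fits to the compared groups alone, averaged probe sets per gene, an unadjusted p with a 2-fold difference, and leaving out each array.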

Additional observations from a re-analysis of the deposited data

Results flagged for a closer look

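For Mmp12, Mmp13 and Mmp7 all arrays of 1 time lay above the control mean and all arrays of another time below it. This pattern was looked for only in the members and the other named genes. The share of all probe sets with it was not counted, so how common it is is not known. It takes no account of how widely the controls spread. Mmp12 was below the control mean on all 24 h arrays and above it on all 72 h arrays, and 72 h minus 24 h was 3.14 (limma adjusted p = 0.844). Mmp13 was below it on all 48 h arrays and above it on all 72 h arrays, and 72 h minus 48 h was 2.55 (limma adjusted p = 0.746). HIFU_72h replicate 3, at 8.66, was only just above the Mmp13 control mean of 8.61. Mmp7 was above it on all 24 h and 48 h arrays and below it on all 72 h arrays, with 72 h minus 24 h at -0.48 (limma adjusted p = 0.889) and 72 h minus 48 h at -0.98 (limma adjusted p = 0.735). None of these 4 differences passed the test, and Mmp7 signals were low, from 2.72 to 4.24 over the 12 arrays.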

How the results depend on the processing

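Over the alternatives, 906 of 933 recomputed member differences kept their sign and their side of the threshold, 18 newly passed and 9 changed sign. Many could not change sign by construction. Removing dim probe sets, the trend and robust options and fits to the compared groups alone leave each difference as it was. So do averaging probe sets, as each member had 1, and leaving out an array of a group not compared. The 906 is therefore no measure of stability. The 423 recomputed differences of the other named genes gave 20 that newly passed and 0 that changed sign; these were added after seeing the data. With array weights the number of members called was 6 for the mean of the HIFU groups, 4 at 24 h, 1 at 48 h, 4 at 72 h and 3 by the F test, while 17.1%, 5.03%, 4.25%, 8.31% and 6.7% of all probe sets were called. The 6 were Mmp2, Mmp9, Mmp14, Mmp19, Timp1 and Timp3. An unadjusted p with a 2-fold difference gave 5 members for the mean of the HIFU groups, 4 at 24 h, 3 at 48 h, 3 at 72 h, 3 for 72 h against 48 h and 2 for 72 h against 24 h, where 6.75%, 5.39%, 7.31%, 7.3%, 1.78% and 2.41% of all probe sets met it. Leaving out single arrays gave 0 to 1 members for the mean of the HIFU groups, at 24 h and at 48 h, and 0 in the other comparisons; the 1 was Timp3 without control replicate 3. Without that control, Reck (-2.40 at 24 h), Mmp8 (6.90 at 72 h) and Mmp17 (-1.49 at 72 h) also passed, and the share of all probe sets called was 1.79% for the mean of the HIFU groups, 1.14% at 24 h, 1.41% at 48 h and 0.874% at 72 h. With single arrays left out, the Mmp13 difference for the mean of the HIFU groups ranged from -0.96 to 0.84. At 24 h Mmp13 changed sign, to 0.050 under quantile normalization, to 0.20 with array weights, and with single arrays left out it ranged from -0.83 to 0.97, among them 0.13 and 0.04 without HIFU_24h replicates 2 and 3. Mmp12 at 48 h was -0.36 with array weights and ranged from -1.21 to 0.94 with single arrays left out, and Timp2 at 48 h ranged from -0.34 to 1.10, both lowest without HIFU_48h replicate 2. With the replicate number as a replicate block, 0 members were called in each comparison; each number occurs once per group, so the block leaves every difference as it was by construction. Of 18 same-numbered pairs of tumors 4 had deviations correlated above 0.1 (-0.61 to 0.62), among them all 3 pairs of 48 h and 72 h tumors, and the paired fit to those 6 arrays, added after seeing the data, also called 0 members. Some differently numbered 48 h and 72 h tumors correlated as well, at 0.375 and 0.381, and these correlations depend on one another. Median centring moved the median of all probe sets at 72 h to -0.20. Only the groups compared was not run for the mean of the HIFU groups, which already uses all 12 arrays.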
